A study of Mus musculus with 72 samples.

Results

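Cirbp (cold-inducible RNA-binding protein) and Rbm3 (RNA-binding motif protein 3) are a pair of small RNA-binding proteins, each with 1 RNA recognition motif and a glycine-rich tail. They were taken by symbol, as 2 of the 22823 genes of the liver count table and 2 of the 15759 genes of the table of the suprachiasmatic nucleus (SCN, the hypothalamic pacemaker of daily rhythms), and were followed in all 72 libraries. Their 23 (Cirbp) and 31 (Rbm3) exon bins were taken from 472109 bins counted per library. Both genes passed the filter on low counts in both tissues.

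The mice were C57BL/6J, 8 to 12 weeks old when bought (the protocol speaks of males, while the labels give 1 female per group), and ate a methionine/choline deficient (MCD) diet or its isocaloric control for 11 days. Mice of both diets were housed singly at an ambient temperature of 21 ± 5 °C, in cycles of 12 h of light and 12 h of darkness for 10 days and then in constant darkness. On that last day they were killed at 4 h intervals at circadian times (CT) 0, 4, 8, 12, 16 and 20 h, of which CT00 to CT08 are called day and CT12 to CT20 night below. Each of the 12 groups per tissue, 2 diets at 6 times, held 3 libraries, 2 from males (numbers 1 and 2) and 1 from a female (number 3). Liver came from the left lobe, and the SCN was cut from stained brain sections with a laser. The 2 control males of CT08 carry the same column name and are called a and b.

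In mammalian cells the mRNAs of both genes accumulate under mild cooling and decline under warming. Body temperature of a mouse is lower in its rest phase, the day, than in its active phase, the night, and such daily temperature cycles have been shown to drive Cirbp in cultured cells, while heat shock genes follow temperature in the other direction. CIRBP binds transcripts of clock genes, among them Clock, both proteins influence the choice of polyadenylation sites, and RBM3 has been studied in brain for the protection of synapses. The Rbm3 gene also holds a poison exon, an exon whose inclusion marks the mRNA for decay and which is included more at warmer temperature.

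Cirbp lies on chromosome 10 at 80165985 to 80172786, plus strand (GRCm38, GENCODE M21), with 7 annotated transcripts and no other annotated gene across it. Rbm3 lies on chromosome X at 8138975 to 8145880, minus strand, with 11 transcripts, and shares 452 bases at its 5′ end with the antisense RNA Rbm3os. The deposited counts were made on another build, GRCm39, per the submitters' processing notes, so these positions name the loci only. The Cirbp promoter is shown because a mild-cold response element, TCCCCGCC, has been described there. The stretch is chr10:80167589-80167777 (RefSeq promoter table, GRCm38.p6, plus strand, 189 bases), with that element in capitals.

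Cirbp promoter: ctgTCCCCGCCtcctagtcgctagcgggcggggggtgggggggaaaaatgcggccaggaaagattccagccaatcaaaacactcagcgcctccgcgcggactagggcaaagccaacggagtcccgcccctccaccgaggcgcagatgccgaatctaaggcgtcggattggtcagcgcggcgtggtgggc

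The octamer began 186 bases before the proximal annotated transcript start. Of 32544 RefSeq promoters, 2.89% held it on either strand in a window of the same length. The GC box core GGGCGG matched at 2 places, 1 on each strand and neither overlapping the octamer, and was in 22.8% of promoters. The E-box CACGTG, the D-box TTATGTAA and the heat shock element core GAANNTTC, searched on both strands, had no match in this window, and 3.99%, 0.581% and 4.92% of promoters held them. For Rbm3 the promoter is named only.

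In units of 1000000 counts, liver libraries held from 52.6 to 86.7 and SCN libraries from 23.3 to 79.8. All 6 liver parenchyma markers were counted in liver and all 8 SCN markers in the SCN, where the summed markers of neighbouring hypothalamic cells ran from 64.7 to 240.1 counts per 1000000 (CPM). In liver the summed CPM of 5 macrophage markers ran from 144 to 448 on control and from 246 to 538 on MCD, and their part in the diet results was not tested. Summed markers of red blood cells reached 1565 CPM in a control and 389 CPM in an MCD library of the SCN. The liver libraries fell into 21 of low and 15 of high mt-Nd6, a mitochondrial transcript, with 8 of 18 control and 13 of 18 MCD libraries of the low kind. On a scale where the other control livers average 0 and the MCD livers 1, over the 10049 genes called by diet without it, the liver library labelled control CT08 a lay at 0.989. The other 17 control livers lay between -0.187 and 0.272 and the 18 MCD livers between 0.675 and 1.38, so this library goes against its label. No gene-level call on a member given below changed without it. The gene tables do not say which control CT08 male it is.

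In livers of control-fed mice Cirbp was high in the early day and low in the early night. The 3 libraries of CT04 held 33.2, 35.3 and 18.8 CPM (scaled by TMM, a correction for library composition, with the female last) and those of CT16 held 11.4, 10.8 and 8.53 CPM. These groups did not overlap, and their means differed 2.85-fold, 29.1 ± 8.96 against 10.2 ± 1.52 CPM (SD, n = 3 each). They were picked as the times of highest and lowest mean, which favours such a gap. How many of all genes show a gap between times so picked was not counted, here or below. A 24 h cosine through the log2 CPM of the 18 libraries peaked at CT 4.85 ± 0.79 h (SE), with a trough-to-peak range of 1.15 ± 0.24 log2 (SE, adjusted p = 0.00157). That p, like each adjusted p of a gene below, is from edgeR's quasi-likelihood F test with Benjamini-Hochberg adjustment over all genes tested, 20249 in liver. In whole liver, fewer cells with a transcript and less of it per cell cannot be told apart.

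Rbm3 rose later in the same livers. It was highest at CT12 with 34.7, 33.9 and 32.2 CPM and lowest at CT00 with 17.1, 20.8 and 20.8 CPM, again without overlap. Here too the times were picked by their means. The fitted peak was at CT 12.31 ± 0.65 h and the range 0.74 ± 0.13 log2 (adjusted p = 0.00147). Both members were thus called rhythmic on control diet, where 17.8% of genes were, with a median range of 0.42 log2 over all genes. Across the 36 liver libraries Pearson's r of their log2 CPM was -0.03, a description of libraries that share groups. Without replicate 1 or replicate 2 throughout, the Cirbp rhythm on control was not called (adjusted p = 0.132 and 0.0508), nor was that of Rbm3 without replicate 1 (0.111). Within the low mt-Nd6 libraries alone neither was called (ranges of 0.76 log2 for Cirbp and 0.82 log2 for Rbm3). Within the high ones that of Cirbp was called (1.43 log2) and that of Rbm3 was not (0.59 log2).

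On MCD diet both members were again called rhythmic in liver, and the fitted Rbm3 peak stood earlier than on control. Cirbp ran from 9.22, 8.30 and 5.71 CPM at CT16 to 13.0, 10.0 and 25.5 CPM at CT00, where the female alone stood high, with a fitted range of 0.98 ± 0.24 log2 and a peak at CT 2.78 ± 0.94 h (adjusted p = 0.00285). Rbm3 held 41.0, 28 and 26.3 CPM at CT04, 33.9, 35.7 and 31.3 CPM at CT12 and 15.9, 15.6 and 16.4 CPM at CT20, with a range of 1.06 ± 0.18 log2 and a peak at CT 7.72 ± 0.65 h (adjusted p = 8.77e-06). Of all genes 28.2% were called rhythmic on MCD. Without replicate 1 the Cirbp rhythm on MCD was not called (adjusted p = 0.0628). Within the low mt-Nd6 libraries alone it was called (range 1.08 log2), and within the high ones, 5 on MCD, it was not (0.53 log2).

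The order of the group means (CPM ± SD, n = 3 each) shows the daily course. Cirbp in control liver ranked CT04 (29.1 ± 8.96), CT08 (19.6 ± 5.81), CT20 (14.1 ± 1.58), CT00 (14.0 ± 2.44), CT12 (13.9 ± 1.98) and CT16 (10.2 ± 1.52), and of the neighbours in this order CT08 and CT20 and CT12 and CT16 did not overlap. On MCD the order was CT00 (16.2 ± 8.22), CT04 (15.2 ± 2.34), CT08 (13.3 ± 3.01), CT20 (11.8 ± 1.36), CT12 (9.36 ± 1.21) and CT16 (7.74 ± 1.82), and every pair of neighbours in this order overlapped. The early day thus led both orders and CT16 closed both. Rbm3 in control liver ranked CT12 (33.6 ± 1.3), CT16 (27 ± 4.49), CT08 (24.9 ± 3.32), CT04 (20.7 ± 3.12), CT20 (20.5 ± 1.78) and CT00 (19.6 ± 2.13), and of the neighbours in this order CT12 and CT16 did not overlap. On MCD the order was CT12 (33.6 ± 2.26), CT04 (31.8 ± 8.00), CT08 (29.3 ± 8.02), CT00 (21.3 ± 4.20), CT16 (17.8 ± 1.65) and CT20 (15.9 ± 0.408), and every pair of neighbours in this order overlapped. CT12 came first for Rbm3 on both diets, while CT16 was the runner-up on control and the second lowest on MCD.

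**Figure D1:**
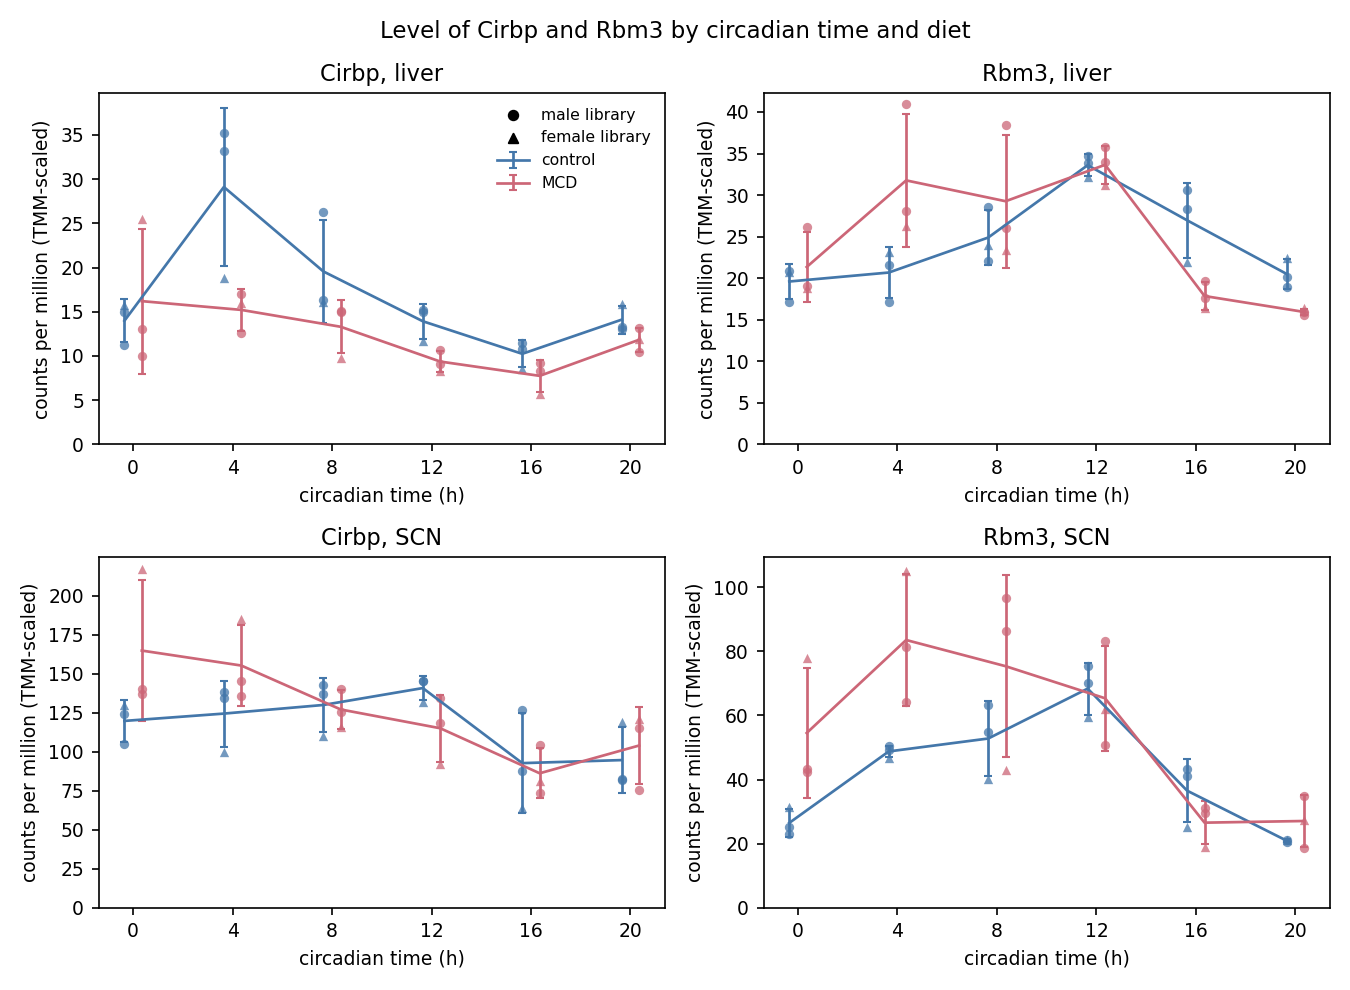
Level of Cirbp and Rbm3 (TMM-scaled CPM, axes from 0) against circadian time (h) in liver and SCN on control and MCD diet. Points are libraries, lines join group means and bars are SD (n = 3). At CT04 the 3 MCD livers lie below the 3 control livers for Cirbp and above them for Rbm3.

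Cirbp was lower on MCD in liver. Averaged over the 6 times it fell by 0.41 on the log2 scale (± 0.11 SE, 1.33-fold, adjusted p = 0.00320), where 46.6% of genes were called by diet and 21.2% were called lower. All 3 MCD libraries lay below all 3 control libraries at CT04 (17.0, 12.6 and 16.0 CPM), CT08 (15.0, 15.1 and 9.82 against 16.3, 26.3 and 16.1 CPM) and CT12 (10.7, 9.11 and 8.30 against 15.2, 15.0 and 11.6 CPM). The 16.3 CPM is of control CT08 a, the library that goes against its label. How many of all genes show such a separation of the diets was not counted, here or below, for either tissue. Of the single times the difference passed at CT04 (fell by 0.92 on the log2 scale, ± 0.27 SE, adjusted p = 0.0197), where 8.71% of genes were called lower. At CT08 and CT12, 0.751% and 7.13% of genes were called lower and Cirbp did not pass (adjusted p = 0.395 and 0.160). At CT00 the mean was higher on MCD (by 0.23 log2, ± 0.27 SE, adjusted p = 0.646) and the groups overlapped. Its rhythm was not told apart between the diets (peak 2.06 h earlier on MCD, adjusted p = 0.412). With 1 library left out this shift ran from -2.45 h to -1.27 h, the smallest without the MCD female of CT00, and without the females throughout it was -0.95 h, in no case called. Within the low mt-Nd6 libraries it was -2.08 h. Within the high ones it turned to 4.28 h, over 5 MCD libraries whose fitted peak had an SE of 6.53 h.

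The size of this fall depends on the scaling of libraries. With library totals alone the median of all genes rose from 0.02 to 0.27 log2, genes called by diet went from 5130 higher and 4296 lower to 10633 higher and 1540 lower, and Cirbp stood at -0.15 log2 (adjusted p = 0.243). Relative to the median gene Cirbp was -0.43 log2 with TMM and -0.42 with totals. The overall call was lost without replicate 1 or replicate 2 throughout (adjusted p = 0.0550 and 0.0516) and was not reached within the low or the high mt-Nd6 libraries alone (-0.32 and -0.49 log2, adjusted p = 0.126 and 0.0671), but held with a term for library kind (-0.41 log2, adjusted p = 0.00668). The CT04 call was lost without control male 1, control male 2 or MCD male 2 of that time (adjusted p = 0.0786, 0.0969 and 0.0841). It was also lost without replicate 1 or replicate 2 throughout (adjusted p = 0.280 and 0.249). The fall at CT04 was smaller with library totals alone, with the value given in the closing part on processing.

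For Rbm3 in liver the 24 h rhythm differed between the diets. The fitted MCD peak stood 4.60 h earlier than the control peak, while CT12 held the highest mean on both diets. The test of the 2 rhythms against each other takes range and peak together and passed (adjusted p = 0.00599 by edgeR), as it did for 4.87% of genes. The fitted range also differed, 0.74 log2 on control and 1.06 log2 on MCD, and timing alone was not tested. MCD livers stood above control livers at CT04, where control held 17.2, 21.6 and 23.2 CPM (0.61 ± 0.17 log2, adjusted p = 0.0129, with 9.46% of genes called higher). They stood below them at CT16, 17.6, 19.6 and 16.3 CPM against 28.3, 30.6 and 21.9 CPM (-0.59 ± 0.17 log2, adjusted p = 0.0209, with 5.99% called lower). At CT20 the MCD libraries were also all below the control libraries (18.9, 20.1 and 22.5 CPM), a difference that did not pass (adjusted p = 0.162, with 5.6% called lower). Averaged over time the difference was 0.00 log2 (95% interval -0.13 to 0.13, adjusted p = 1.00), and with library totals alone it was 0.25 log2 (adjusted p = 0.0138), -0.02 relative to the median gene.

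The difference in the Rbm3 rhythm was called with any 1 of the 36 liver libraries left out (shift from -5.00 to -4.24 h, adjusted p from 0.00474 to 0.0154) and with a term for library kind (adjusted p = 0.00617). It was not called without replicate 1 (adjusted p = 0.220) or replicate 2 (0.136). Within the low and the high mt-Nd6 libraries alone the shift was -3.18 h (unadjusted p = 0.0576, adjusted p = 0.360) and -7.78 h (unadjusted p = 0.000145, adjusted p = 0.281) by edgeR. In those subsets 11 and 0 genes of the whole table passed, against 1031 with the same fit over all 36 libraries. The CT04 call was lost without control male 1 or MCD male 1 of that time (adjusted p = 0.0995 and 0.141). It was also lost without replicate 1 throughout (0.27 log2, adjusted p = 0.520), and with 1 library left out the value ran from 0.40 to 0.75 log2. The CT16 call was lost without control male 1, control male 2, MCD male 1 or the MCD female of that time (0.0728, 0.0923, 0.0576 and 0.0801). Without replicate 1, 2 or 3 throughout it was lost each time (adjusted p = 0.154, 0.125 and 0.0760). The fall at CT16 was smaller with library totals alone, with the value given in the closing part on processing.

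In the SCN of control-fed mice Rbm3 was high at CT12 and low at CT20. It held 70.2, 75.3 and 59.5 CPM at CT12 and 21.2, 20.4 and 21.2 CPM at CT20, a 3.27-fold ratio of means without overlap. As in liver, the times were picked for the highest and the lowest mean. The fitted range was 1.57 ± 0.20 log2 and the peak CT 9.31 ± 0.47 h (adjusted p = 8.55e-05), where 15.1% of 15759 genes were called and the median range was 0.31 log2. Cirbp ran from 87.4, 127 and 63.8 CPM at CT16 to 145, 145 and 132 CPM at CT12. Its range of 0.56 ± 0.20 log2 with a peak at CT 7.10 ± 1.32 h did not pass (adjusted p = 0.107), but did without control male 2 of CT16 (0.0226), the control female of CT20 (0.0421) or all females (0.0101).

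On MCD both members were called rhythmic in the SCN, where 16.1% of genes were. Rbm3 held 81.2, 64.3 and 105 CPM at CT04 and 31.2, 29.5 and 19.0 CPM at CT16, with a range of 1.79 ± 0.32 log2 and a peak at CT 6.26 ± 0.68 h (adjusted p = 1.08e-05). Cirbp held 140.4, 137 and 217 CPM at CT00 and 104, 73.3 and 81.3 CPM at CT16, with a range of 0.85 ± 0.19 log2 and a peak at CT 3.51 ± 0.88 h (adjusted p = 0.00555). Without replicate 2 this Cirbp rhythm was not called (0.0524). Early in the day the female MCD libraries stood highest, for Cirbp at CT00 and CT04 and for Rbm3 at the same times.

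Ordered by mean level (CPM ± SD, n = 3 each), Rbm3 in control SCN ranked CT12 (68.3 ± 8.10), CT08 (52.8 ± 11.6), CT04 (48.8 ± 1.79), CT16 (36.5 ± 9.84), CT00 (26.5 ± 4.31) and CT20 (20.9 ± 0.467), and of the neighbours in this order CT04 and CT16 and CT00 and CT20 did not overlap. On MCD the order was CT04 (83.5 ± 20.5), CT08 (75.3 ± 28.4), CT12 (65.3 ± 16.4), CT00 (54.5 ± 20.2), CT20 (27.1 ± 8.19) and CT16 (26.6 ± 6.62), and of the neighbours in this order CT00 and CT20 did not overlap. CT20 was last on control and CT16 on MCD. Cirbp in control SCN ranked CT12 (141 ± 7.70), CT08 (130.0 ± 17.3), CT04 (124 ± 21.2), CT00 (120.0 ± 13.4), CT20 (94.7 ± 21.2) and CT16 (92.7 ± 31.8), and every pair of neighbours in this order overlapped. On MCD the order was CT00 (165 ± 45.2), CT04 (155 ± 26), CT08 (127 ± 12.3), CT12 (115 ± 21.4), CT20 (104 ± 24.8) and CT16 (86.2 ± 15.9), and every pair of neighbours in this order overlapped. CT16 and CT20 closed the order for Cirbp on both diets.

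No diet difference of either member passed in the SCN. Rbm3 at CT00 had 43.2, 42.5 and 77.8 CPM on MCD against 23.0, 25.1 and 31.3 CPM on control, without overlap (1.05 ± 0.29 log2, adjusted p = 0.504, with 0.00635% of genes called higher). With 1 library left out this value ran from 0.61 log2, without the MCD female of CT00, to 1.26 log2, without the control female of CT00. At CT04 its MCD libraries were again all above the control libraries, which held 49.1, 50.4 and 46.8 CPM (adjusted p = 0.696, with 0.0444% called higher). Averaged over time Rbm3 differed by 0.37 log2 (95% interval 0.14 to 0.59, unadjusted p = 0.00372 and adjusted p = 0.486 by edgeR) and Cirbp by 0.08 log2 (95% interval -0.10 to 0.26, adjusted p = 1.00), where 0.0635% of genes were called. The fitted peaks were 3.05 h (Rbm3) and 3.59 h (Cirbp) earlier on MCD, with adjusted p = 0.919 and 1.00, and 0.0127% of genes passed that test.

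**Figure D2:**
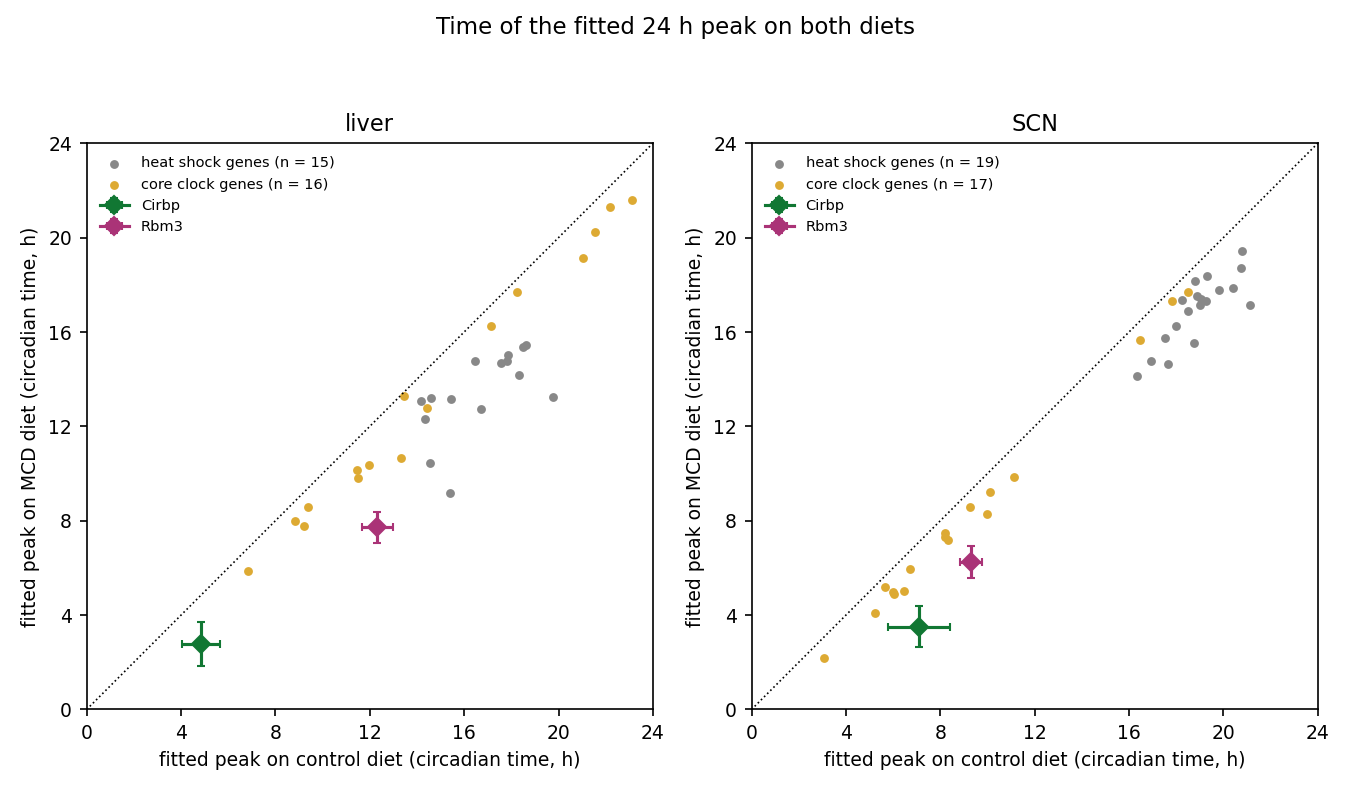
Fitted time of the 24 h peak on MCD (vertical, circadian h) against control diet (horizontal, circadian h). Diamonds are Cirbp and Rbm3 with SE of the fitted peak, and dots are heat shock and core clock genes called rhythmic on both diets. Below the dotted line of equal times the peak was earlier on MCD, as for both members and for all 15 heat shock genes plotted in liver and all 19 in SCN.

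Earlier fitted peaks on MCD were the rule among rhythmic genes. Of the 2271 liver genes called rhythmic on both diets 79.8% peaked earlier on MCD, with a median shift of -1.74 h, and of the 1556 SCN genes 84.0%, with a median of -0.97 h. In liver 9.47% of these genes shifted further towards earlier times than Rbm3 and 43.0% further than Cirbp. In SCN 4.63% shifted further than Rbm3. Core clock genes shifted by a median of -1.31 h in liver (16 of 16 earlier) and -0.89 h in SCN (17 of 17), and heat shock genes by -3.03 h (15 of 15) and -1.84 h (19 of 19). All these values come from the same libraries.

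The balance of the members within a library was itself rhythmic. The log2 CPM of Cirbp minus that of Rbm3, which is not scaled to transcript length and so ranks neither gene above the other, was fitted in 18 libraries at a time and tested with 100000 permutations of the times (permutation test on the upper tail of F, adjusted over 4 tests). In control liver its range was 1.58 ± 0.29 log2 and Cirbp weighed most near CT 3.13 h (adjusted p = 0.000520). In MCD liver the range was 1.23 ± 0.30 log2, peaking at CT 23.07 h (adjusted p = 0.00419), and without the females it did not pass (0.0882). In SCN the ranges were 1.14 ± 0.18 log2 on control, peaking at CT 22.35 h, and 1.28 ± 0.21 log2 on MCD, peaking at CT 19.98 h (adjusted p = 0.000520 for each). Across the 36 SCN libraries the log2 CPM of the members had a Pearson r of 0.71, and 0.68 after group means were removed.

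**Figure D3:**
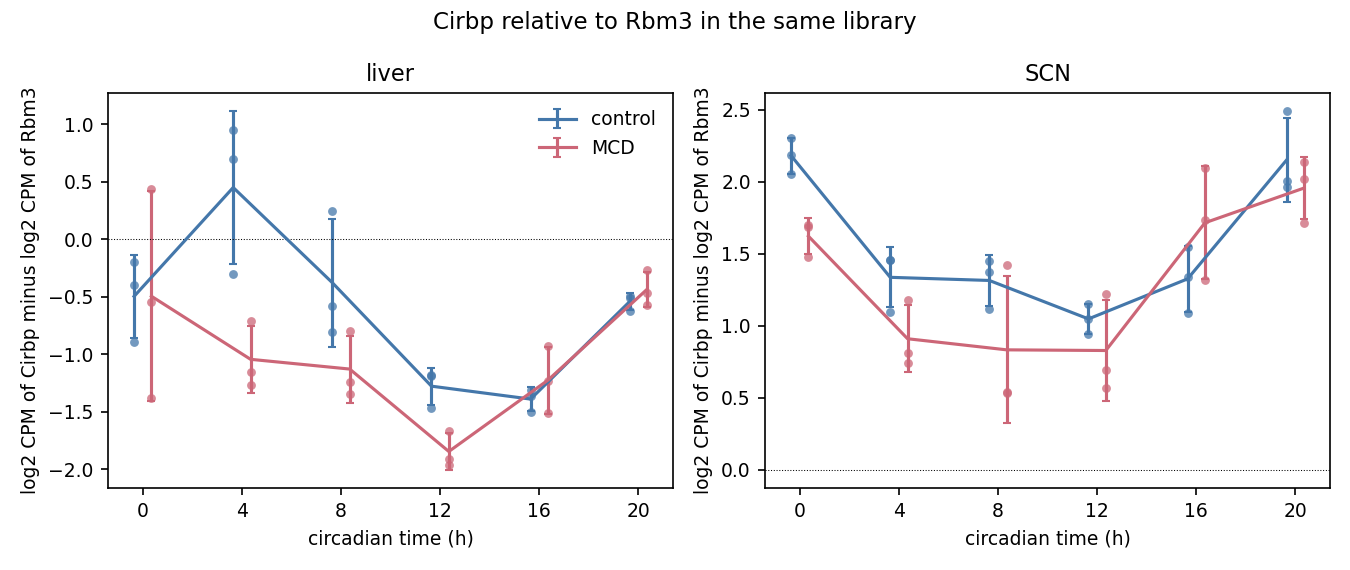
Log2 CPM of Cirbp minus log2 CPM of Rbm3 in the same library against circadian time (h), in liver and SCN. Points are libraries, lines join group means and bars are SD (n = 3). In control liver the difference is highest at CT04, and in control SCN it is highest at CT00 and CT20 and lowest at CT12.

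Between the tissues, on control diet, the Cirbp level differed in every fit run. The level and the 24 h rhythm of Rbm3 passed the test but lost the call in other fits, and the Cirbp rhythm did not pass. Over the 14491 genes counted in both, Cirbp was 1.86 ± 0.12 log2 higher in SCN (3.63-fold, adjusted p = 1.64e-20), a test that 90.4% of genes passed. Rbm3 was 0.27 ± 0.11 log2 lower in SCN with TMM (adjusted p = 0.0189) but 0.43 log2 higher with library totals (0.000405), where the median of all genes moved from 0.04 to 0.75 log2 and Cirbp stood 2.57 log2 higher. The fitted Rbm3 peak stood 2.97 h earlier in SCN than in liver, and the fitted Cirbp peak 2.34 h later. The test of the rhythms between tissues takes range and peak together (adjusted p = 0.00697 for Rbm3 and 0.105 for Cirbp by edgeR, with 16.9% of genes called). The fitted Rbm3 range also differed, 0.74 log2 in liver and 1.57 log2 in SCN, and a difference in peak alone was not tested. Without replicate 1 or replicate 2 neither the Rbm3 level (adjusted p = 0.0599 and 0.114) nor the Rbm3 rhythm (0.0770 and 0.102) was called as different, and without the females the Cirbp rhythm was (0.0320). With the replicate block neither Rbm3 difference was called (level -0.33 log2, adjusted p = 0.0550, and rhythm, with a fitted peak at -2.86 h, adjusted p = 0.188). Liver and SCN of 1 mouse may share a number, which no label states. Fitted so, the Rbm3 difference in rhythm did not pass (adjusted p = 0.128) and that of Cirbp did (0.0409).

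The diet effect also differed between the tissues. SCN minus liver, it was 0.50 ± 0.15 log2 for Cirbp (adjusted p = 0.00691) and 0.37 ± 0.14 log2 for Rbm3 (adjusted p = 0.0321), where 34.7% of genes passed. With library totals these were 0.34 (0.0635) and 0.21 log2 (0.241), neither called, and the calls of the test moved from 2288 higher and 2737 lower in SCN to 1042 and 5098. Relative to the median of all genes, which moved from -0.01 to -0.17 log2, they were 0.51 and 0.51 log2 for Cirbp and 0.38 and 0.38 log2 for Rbm3, with TMM and with totals. The Rbm3 difference was not called without replicate 1, 2 or 3 (adjusted p = 0.0621, 0.118 and 0.217), nor that of Cirbp without replicate 1 (0.0814). Neither member was called by sex (adjusted p from 0.417 to 0.964, with 9.44% of liver and 9.89% of SCN genes called) or for a diet effect that differed by sex (0.532 to 0.922, with 1.77% of liver and 0% of SCN genes called), with 1 female in each group.

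Heat shock genes, the chaperones and their factors, made up a list of 22. On control diet 18 were called rhythmic in liver and 20 in SCN, beside 17.8% and 15.1% of all genes. The list medians were 1.03 and 0.64 log2 in range. All those called peaked in the night, from CT 14.2 to 19.8 h in liver and from CT 16.4 to 21.1 h in SCN, as did 51.1% and 50.1% of all rhythmic genes. In liver 18 of 18 peaked within 3 h of the time opposite the Cirbp peak and 0 within 3 h of that opposite the Rbm3 peak, and in SCN 20 and 14 of 20. Of all genes rhythmic on control 22.9% and 25.4% did so in liver and 34.4% and 33.1% in SCN, where the Cirbp rhythm on control did not pass (adjusted p = 0.107) and the SE of its fitted peak was 1.32 h. In liver the chaperone Hspa4l (peak CT 18.6 h, range 1.42 log2, adjusted p = 5.1e-06), the co-chaperone Stip1, which links HSP70 to HSP90 (peak CT 17.8 h, range 1.10 log2, adjusted p = 0.000112), and the mitochondrial co-chaperonin Hspe1 (peak CT 16.7 h, range 0.69 log2, adjusted p = 0.000150) had the smallest p-values. In SCN these were the HSP40 gene Dnajb1 (peak CT 17.7 h, range 1.26 log2, adjusted p = 3.79e-08), Hsph1 (peak CT 19.0 h, range 1.03 log2, adjusted p = 3.28e-07) and Stip1 (peak CT 18.5 h, range 0.83 log2, adjusted p = 1.53e-06).

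By diet 7 heat shock genes rose and 2 fell in liver on MCD, beside 25.3% and 21.2% of all genes, with a list median of 0.00 log2 beside 0.02 over all genes. The inducible HSP70 genes Hspa1a and Hspa1b, near-identical copies between which reads are hard to divide, rose by 1.23 ± 0.20 and 1.07 ± 0.20 log2 (SE, adjusted p = 1.53e-05 and 0.000106), and the small chaperone Hspb1 rose by 0.90 ± 0.18 log2 (adjusted p = 0.000178). With library totals alone, where the median of all genes stood at 0.27 log2, 18 heat shock genes were called higher and 0 lower, beside 10633 and 1540 of all genes. In the SCN 0 of 22 were called by diet, beside 0.0635% of all genes.

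Of 19 core clock genes 17 were called rhythmic on control in liver and 17 in SCN, beside 17.8% and 15.1% of all genes. In liver the smallest p-values were those of the output factors Tef and Dbp and the repressor Nr1d2, with peaks at CT 11.5, 9.38 and 8.83 h and ranges of 2.74, 7.46 and 3.53 log2 (adjusted p = 1.19e-09, 1.65e-09 and 1.19e-09). In SCN they were those of Per2, Nr1d1 and Bhlhe41, all repressors of the clock, with peaks at CT 9.27, 3.08 and 5.22 h and ranges of 3.42, 2.14 and 1.73 log2 (adjusted p = 3.8e-14, 3.8e-14 and 4.65e-14). By diet 3 rose and 4 fell in liver, beside 25.3% and 21.2% of all genes. Among them were the repressor Cry2 (fell by 0.38 ± 0.08 log2, adjusted p = 0.000235), Tef (fell by 0.42 ± 0.09, 0.000381) and Ciart (rose by 0.80 ± 0.22, 0.00371). In SCN 0 were called, beside 0.0635% of all genes. With library totals alone 5 were called higher and 0 lower in liver, beside 10633 and 1540 of all genes. Cry2 (-0.12 log2, adjusted p = 0.118) and Tef (-0.16, 0.0603) then did not pass.

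Among 30 other RNA-binding proteins with an RNA recognition motif, 12 were called rhythmic on control in liver and 10 in SCN, beside 17.8% and 15.1% of all genes. The list medians were 0.28 and 0.25 log2 in range. In liver the splicing activator Tra2a (peak CT 20.2 h, range 0.69 log2, adjusted p = 0.000499) and Tardbp, the gene of TDP-43 (peak CT 23.2 h, range 0.74 log2, adjusted p = 0.000555), peaked in the night. In SCN Tra2a, Hnrnpdl and the splicing factor Srsf5 peaked at CT 16.6, 6.59 and 5.52 h with ranges of 0.60, 0.67 and 0.71 log2 (adjusted p = 0.000122, 0.000183 and 0.00111). By diet 5 rose and 10 fell in liver, beside 25.3% and 21.2% of all genes. Rbmx, Tial1 and Rbm5, all regulators of splicing, fell by 0.63 ± 0.06, 0.31 ± 0.04 and 0.28 ± 0.04 on the log2 scale (adjusted p = 2.6e-09, 7.26e-08 and 2.15e-06). In SCN 0 were called, beside 0.0635% of all genes. With library totals alone 18 were called higher and 1 lower in liver, beside 10633 and 1540 of all genes. The 1 lower was Rbmx (-0.37 log2, adjusted p = 4.8e-05), while Tial1 (-0.05, 0.113) and Rbm5 (-0.02, 0.794) did not pass.

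Of 16 reported regulators and partners of the members, 15 were tested in liver and 13 in SCN. On control 4 were called rhythmic in liver, beside 17.8% of all genes. They were led by Clock, a transcript that CIRBP binds (peak CT 22.2 h, range 1.37 log2, adjusted p = 9.73e-07), Srsf5 (peak CT 5.31 h, range 0.52 log2, adjusted p = 0.00526) and the GC box factor Sp1 (peak CT 23.8 h, range 0.35 log2, adjusted p = 0.0133). In SCN 1 was called, Srsf5, beside 15.1% of all genes. By diet 1 rose and 3 fell in liver, beside 25.3% and 21.2% of all genes. Hnrnph1, a splicing factor reported to act on the Rbm3 poison exon, rose by 0.20 ± 0.04 log2 (adjusted p = 0.000122), while Srsf5 fell by 0.32 ± 0.06 and the splicing kinase Clk3 by 0.17 ± 0.04 on the log2 scale (4.46e-05 and 0.00154). With library totals alone 11 were called higher and 0 lower, beside 10633 and 1540 of all genes. Srsf5 then did not pass (-0.06 log2, adjusted p = 0.289) and Clk3 turned to 0.08 log2 (0.0509).

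Genes of like pattern were ranked by Pearson r over the 36 libraries of a tissue among genes of at least 10 CPM (8467 in liver and 10664 in SCN), as a description of libraries that share groups and scaling. Among the genes most like Cirbp in liver were Nsmaf, Ift46, Abtb1 and Phka2 (r from 0.83 to 0.85, and 0.92 over the 12 group means for Nsmaf). Most opposite was Dnajb1 (r -0.90, and -0.92 over group means), followed by Dcun1d2, Hsph1, Ywhag and Bag3 (r from -0.86 to -0.83), and 3 of these 5 are on the heat shock list. Most like Rbm3 in liver were Arpc2, Psme1, Cpt1a, Vdac2 and Psmb10 (r from 0.77 to 0.78) and most opposite Crebzf, Slc17a4, Fam149a, Selenoi and Avpr1a (r from -0.86 to -0.79), none of the latter on that list. In SCN Cirbp was most like Hnrnpdl, Chid1, Eif3e, Jund and Rtca (r from 0.75 to 0.84) and most opposite to Chordc1, P4ha1, Tardbp, Zbtb18 and Xpo1 (r from -0.85 to -0.78). Rbm3 in SCN was most like Nap1l5, Armcx5, Rora, Mkrn2 and Tomm20 (r from 0.80 to 0.84) and most opposite to Lman2l, Hnrnpc, Gm5844, Gm12346 and Hsp90aa1 (r from -0.85 to -0.81).

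A near copy of Rbm3 was counted beside it. The pseudogene Rbm3-ps carried 5.22% to 15.0% of the Rbm3 count in liver and 5.51% to 16.5% in SCN and followed Rbm3 across libraries (Pearson r of 0.85 and 0.89, 36 libraries each), so the division of reads between them is uncertain. The antisense Rbm3os had at most 18 counts in a liver library. Whether counting used the strand is not given in the sources used here.

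Exon bins divide each gene at the borders of its annotated transcripts (the numbers of bins match those built from GENCODE M21), and a bin's share is its percent of all bin counts of the gene in a library. The files of 34 liver and 36 SCN libraries were complete, while 2 of control CT00 in liver end early and were left out. The most counted Cirbp bins were 8, 17 and 19 in both tissues, with 10.3% ± 1.23, 9.26% ± 1.59 and 10.6% ± 1.21 of its counts in liver (SD, n = 34) and 12.5% ± 0.887, 10.8% ± 0.902 and 16.7% ± 1.93 in SCN (SD, n = 36). For Rbm3 they were bins 15, 16 and 21 in liver (11.0% ± 1.65, 10.1% ± 1.65 and 9.35% ± 1.66) and 15, 16 and 13 in SCN (16.9% ± 2.24, 13.3% ± 2.22 and 11.4% ± 2.01). Further bins were looked at for their annotation or after their values were seen. Cirbp bins 16 and 20, of retained introns, took 5.13% ± 1.25 and 5.87% ± 1.43 in liver and 0.651% ± 0.424 and 0.747% ± 0.489 in SCN, and Rbm3 bin 2, 1806 non-coding bases at the far 3′ end of 2 of its transcripts (chromosome X, 8138978 to 8140783 on GRCm38), took 9.40% ± 3.67 in liver and 1.26% ± 1.47 in SCN. These shares between tissues were not tested.

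**Figure D4:**
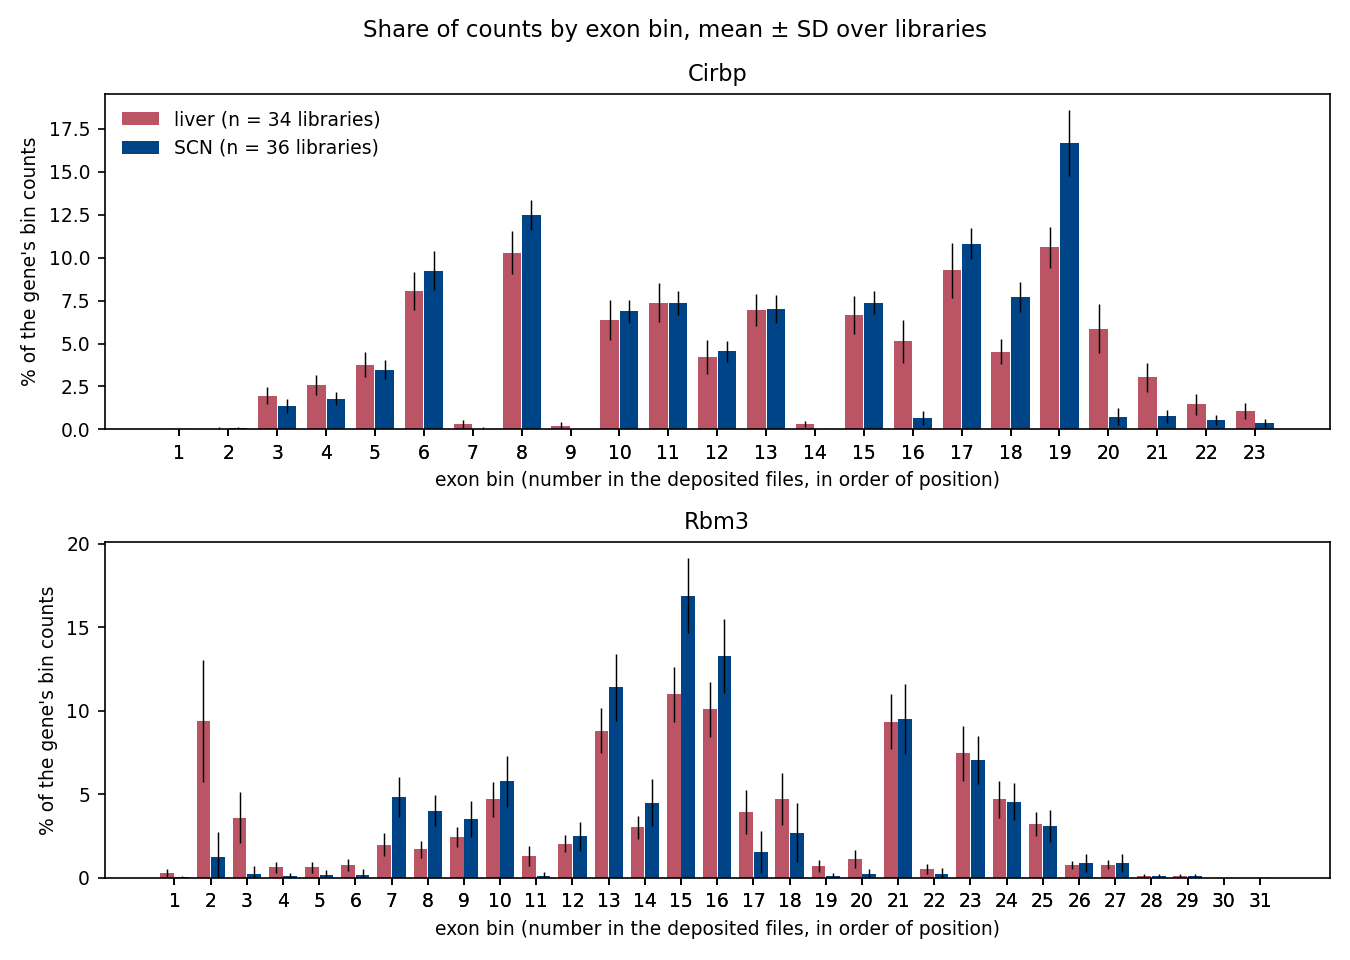
Share of the counts of Cirbp (top) and Rbm3 (bottom) in each exon bin (percent of the gene's bin counts, bars from 0, with SD over 34 liver or 36 SCN libraries). Cirbp bins 16 and 20 to 23 and Rbm3 bins 2 and 3 hold larger shares in liver than in SCN.

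No bin or gene-level test of either member passed for night against day or for diet in either tissue (edgeR's diffSpliceDGE, gene-level Simes adjusted p from 0.895 to 1). Of the genes tested, 1.03% in liver and 0.0774% in SCN were called by time and 3.45% and 0.0387% by diet. Rbm3 bin 2 held 7.35% ± 2.92 of the gene's counts in liver by day and 11.2% ± 3.33 by night, which did not pass (bin adjusted p, the lowest of any bin of the members in these contrasts, = 0.459 by edgeR). With the narrower contrast of CT16 and CT20 against CT04 and CT08, Rbm3 was called in liver (gene-level adjusted p = 0.000444), where 1.95% of genes were. That call was lost without replicate 2 or without the females (adjusted p = 0.0607 and 0.336), and it held without replicate 1 (0.00350), without control CT08 1 or control CT08 2 (0.000519 and 0.00122) and with a term for library kind (0.00346). Its bin 2 held 6.97% ± 1.77 of Rbm3 counts at CT04 and CT08 (SD, n = 12, 4.66% to 9.80%) and 12.7% ± 2.74 at CT16 and CT20 (n = 12, 8.77% to 17.7%), ranges that overlap at their ends. Relative to the rest of the gene bin 2 was 0.60 log2 higher at the later times (adjusted p = 0.000190 over bins by edgeR) and the neighbouring bin 3 0.64 log2 higher (0.00456).

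Rbm3 bin 18, 271 bases (chromosome X, 8144175 to 8144445 on GRCm38) that belong to transcripts annotated as retained intron or nonsense-mediated decay, was taken for that annotation and was not matched to the described poison exon. In liver it held 3.97% ± 1.05 at CT04 and CT08 and 6.15% ± 1.41 at CT16 and CT20 (SD, n = 12 each; 0.46 log2 relative to the gene, adjusted p = 0.109 by edgeR). In SCN the shares were 1.58% ± 0.926 and 4.10% ± 1.93 (0.93 log2, adjusted p = 1.00). For Rbm3 bin 2 in SCN the difference was 1.82 log2 (adjusted p = 0.947), over 865 counts in all 36 libraries.

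**Figure D5:**
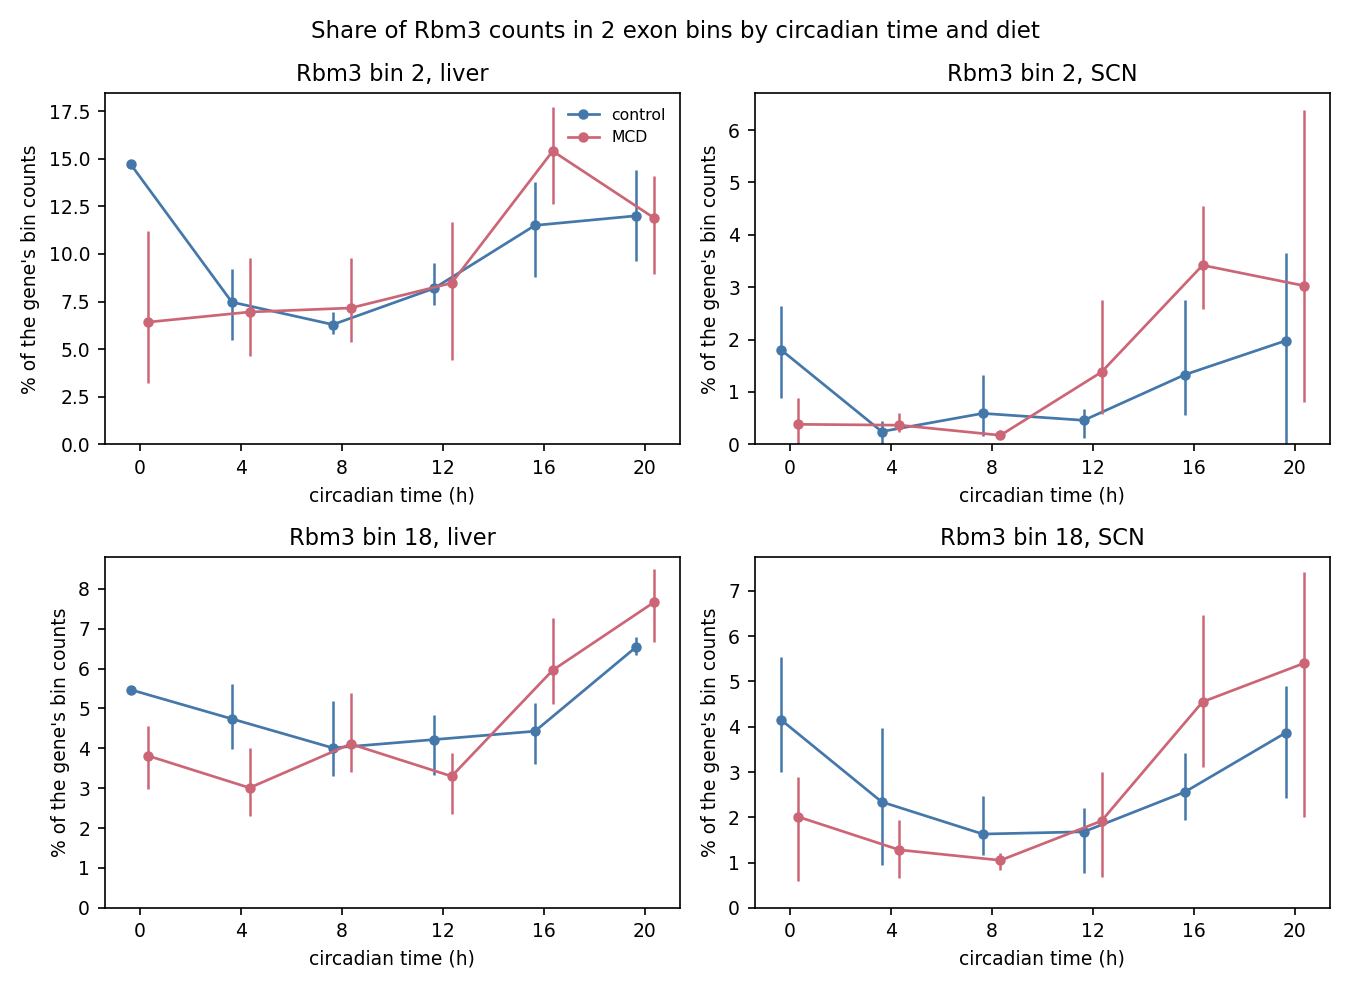
Share of Rbm3 counts (percent of the gene's bin counts, axes from 0) in bin 2, the far 3′ end, and bin 18, of transcripts annotated for decay or intron retention, against circadian time (h). Points are group means and vertical lines run from the lowest to the highest library (n = 3, and 1 for control liver at CT00). In liver the means of bin 2 are higher at CT16 and CT20 than at CT04 and CT08 on both diets.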

How the data were processed

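RNA was sequenced from 36 liver and 36 SCN libraries with a stranded mRNA kit. Per the submitters' processing notes the authors used Trimmomatic, HISAT2, StringTie and DESeq2 on GRCm39, with no roles or versions given, and the authors deposited whole-number counts per gene and per exon bin, which were used as deposited. The liver and SCN gene tables were made separately. The members and the gene lists were chosen with earlier results of these data known.

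Counts were fitted in R 4.3.3 with edgeR 4.0.16 (TMM scaling, filterByExpr with a minimum count of 10, robust quasi-likelihood fit, 12 groups and a term for the female). The 24 h rhythm was a harmonic with 2 degrees of freedom. Each test of a rhythm difference thus takes range and peak together, and no peak time was tested alone. Tests passed at a Benjamini-Hochberg adjusted p under 0.05 over all genes. Between tissues, genes in both tables were fitted together. Peaks, ranges and correlations came from log2 CPM with a prior count of 2. Exon bins were tested with edgeR's diffSpliceDGE, and a complete file was needed. Scripts were tested on simulated data. DESeq2 1.42.0 and limma 3.58.1 gave alternatives. Genes named are the members and, per list and tissue, up to 3 called genes of smallest adjusted p for rhythm on control and for diet, the 5 most alike and 5 most opposite genes per member, and the 3 most counted and the called bins. Some genes that this rule names are not reported here. Labels call libraries separate replicates without stating separate litters or days, so p-values measure the spread between these libraries, and reads carry no molecular identifiers. Liver libraries were split by mt-Nd6 at the widest gap of its log2 CPM. Alternatives with the kind of library within a harmonic fit, exon fits without control CT08 1 or 2, further settings of the narrower exon contrast, the gene lists under other scalings, and liver and SCN as 1 mouse were chosen after seeing the data.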

Additional observations from a re-analysis of the deposited data

Results flagged for a closer look

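The fitted Rbm3 peak in liver stood earlier on MCD than on control diet, with a shift of -4.6 h, while the highest group mean was at CT12 on both diets (33.6 CPM). The test of the difference between the rhythms, range and peak together, passed. That difference was not called without replicate 1 or replicate 2 (adjusted p = 0.220 and 0.136). The diet effect differed between the tissues, SCN minus liver, by 0.5 log2 for Cirbp and by 0.37 log2 for Rbm3, and both tests of the difference passed. Without replicate 1, 2 or 3 the Rbm3 difference was not called (adjusted p from 0.0621 to 0.217), nor the Cirbp difference without replicate 1 (adjusted p = 0.0814), and with library totals neither was (adjusted p = 0.0635 and 0.241 for Cirbp and Rbm3), while relative to the median of all genes the values were 0.51 and 0.51 log2 (Cirbp) and 0.38 and 0.38 log2 (Rbm3) with TMM and with totals. On control diet the fitted Rbm3 peak in SCN stood at -2.97 h relative to liver. The test of the rhythm difference between the tissues, which takes range and peak together, passed. It was not called with the replicate block (-2.86 h, adjusted p = 0.188), with liver and SCN as 1 mouse (adjusted p = 0.128), nor without replicate 1 or replicate 2 (adjusted p = 0.0770 and 0.102).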

How the results depend on the processing

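Of 294 recomputed values of the comparisons, 262 kept direction and side of the threshold, 17 fell below it, 6 passed it and 9 turned sign, and of 192 for single times 185 kept both. These counts leave out the fits that drop each library or each replicate number in turn, but hold those run without a control CT08 library. The cause of each change below was not tested. Scaled by totals alone, the liver diet effect was -0.15 log2 for Cirbp and 0.25 for Rbm3, with -0.60 for Cirbp at CT04 and -0.31 for Rbm3 at CT16, and the differences between tissues were 0.34 (Cirbp) and 0.21 log2 (Rbm3) in diet effect, 0.43 log2 in Rbm3 level and 2.52 h in Cirbp peak. With DESeq2's size factors and with DESeq2 the Rbm3 level difference was -0.20 and -0.20 log2, and with limma's voom the Rbm3 tissue difference in diet effect was 0.34 log2. The Rbm3 liver diet effect, at 0.00 log2, turned sign with no filter on low counts (0.00427), no sex term (0.00291), the kind of library as a term (0.0186, or 0.0203 in the harmonic fit) and without the library labelled control CT08 a (0.00560). At CT12 it turned to -0.00200 with DESeq2's size factors, -0.00199 with DESeq2, -0.00339 without that library and -0.000393 with the replicate block. Within low mt-Nd6 libraries the diet effects were -0.32 (Cirbp) and -0.15 log2 (Rbm3), the ranges on control 0.76 (Cirbp) and 0.82 log2 (Rbm3) and the Rbm3 shift -3.18 h. Within high mt-Nd6 libraries the diet effects were -0.49 (Cirbp) and 0.21 log2 (Rbm3), the Cirbp range on MCD 0.53 and the Rbm3 range on control 0.59 log2, and the shifts 4.28 (Cirbp) and -7.78 h (Rbm3). These values rest on 10 control and 5 MCD libraries, with no MCD library of CT16. The Cirbp peak on MCD there had an SE of 6.53 h, so its shift is not resolved. With CT04 and CT08 against CT16 and CT20 the Rbm3 bin 2 value in liver was 0.60 log2, 0.56 with a term for library kind, 0.60 and 0.59 without control CT08 1 or 2, and 0.61, 0.62 and 0.56 log2 without replicate 1, 2 or 3.

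Same-numbered libraries correlated in their deviations from group means at r from 0.07 to 0.43 in liver (13 of 16 pairs of groups over 0.1) and from -0.09 to 0.28 in SCN (8 of 16). No label ties them, and the main fits did not take them as pairs, although the liver values were all positive. An effect of the number was fitted only as the replicate block that follows. With the replicate block in place of sex, which leaves out the control CT08 males, the Cirbp liver diet effect was -0.38 log2 and the Rbm3 shift -4.33 h, both still called, Cirbp in SCN at CT08 turned to 0.22 log2, and the Rbm3 tissue differences were -0.33 log2 in level and -2.86 h in peak, neither called. It changed no other call. With liver and SCN as 1 mouse the tissue differences in fitted peak were 2.28 h (Cirbp, rhythm difference called) and -2.86 h (Rbm3, rhythm difference not called).

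Without 1 library, or without 1 replicate number, at a time, the values ran from -0.52 to -0.35 log2 (Cirbp) and -0.0465 to 0.0668 log2 (Rbm3) for the liver diet effect, from 1.01 to 1.32 and 0.57 to 0.90 log2 for the liver rhythms on control, from 0.69 to 1.24 log2 for Cirbp on MCD and from -5.05 to -4.22 h for the Rbm3 shift. At single times in liver they ran from -0.38 to 0.50 for Cirbp at CT00, -1.22 to -0.63 for Cirbp at CT04, and for Rbm3 from -0.0484 to 0.23 at CT00, 0.27 to 0.82 at CT04, -0.00723 to 0.34 at CT08, -0.0404 to 0.0207 at CT12 and -0.70 to -0.51 log2 at CT16. In SCN they ran from 0.40 to 0.73 and 0.70 to 1.01 log2 for the Cirbp rhythms on control and MCD, -0.00246 to 0.15 log2 for its diet effect, -0.0750 to 0.0510 for its sex effect and -0.14 to 0.0394, -0.33 to 0.29 and -0.0361 to 0.36 log2 at CT08, CT16 and CT20, with -0.25 to 0.10 log2 for Rbm3 at CT12. Between tissues, without 1 replicate number, they ran from 0.49 to 0.52 (Cirbp) and 0.22 to 0.45 log2 (Rbm3) in diet effect (adjusted p 0.00243 to 0.0814 and 0.0621 to 0.217), 2.14 to 2.46 and -3.08 to -2.87 h in peak (adjusted p 0.0320 to 0.427 and 0.00530 to 0.102) and -0.29 to -0.21 log2 in Rbm3 level. The range of the Cirbp to Rbm3 ratio in MCD liver ran from 0.87 to 1.47 log2. The diet effect by sex was not run with 1 library left out.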
